A study of Mus musculus with 2 samples.

Results

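The genes described here are 44 mouse genes that encode ligands, receptors and extracellular modulators of Wnt signalling, with 1 feedback target, out of 21646 protein-coding genes on chromosomes 1 to 19 and X. They were taken from a list of names and not from their values. By role they are 18 Wnt ligands, 12 receptors (the Frizzled genes Fzd1 to Fzd10 with the co-receptor genes Lrp5 and Lrp6), 7 secreted antagonists (Dkk1, Dkk2, Dkk3, Sfrp1, Sfrp2, Sfrp4 and Sfrp5), 6 R-spondin and Lgr receptor genes, and the feedback target Axin2. The measurement was CTCF ChIP-seq of lung tissue from B6NCrl mice on postnatal day 0, in 1 group of 2 replicates that the labels place under 1 biosample and 1 donor, so the spread between replicates may be technical. No treatment, genotype or other tissue was compared, and the sex was not recorded. Lung tissue mixes epithelium, mesenchyme, endothelium and blood, and the peak lists do not say which of these cells carried a site. No RNA was measured.

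Wnt proteins are secreted, lipid-modified ligands that bind Frizzled receptors together with Lrp5 or Lrp6 and stabilise beta-catenin, or act through beta-catenin-independent routes. Dickkopf proteins such as Dkk1 bind Lrp co-receptors, secreted Frizzled-related proteins can bind the ligands, and R-spondins bind Lgr receptors and amplify the response. In the developing lung, Wnt signalling between epithelium and mesenchyme is known to act in specification of the organ, branching and growth. The DNA-binding protein CTCF recognises an asymmetric motif through its zinc fingers and, with cohesin, anchors chromatin loops, most often between motifs that point towards each other.

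A site is a peak of the authors' optimal IDR list (64732 peaks on the chromosomes used), placed by its summit on mm10. Its pooled signal is the authors' peak height from both replicates together, on a scale that the sources used here do not define. A value per replicate is the signal of the highest peak of that replicate within 100 bp of the summit. Replicate and pooled values are not on 1 scale, since each list was called separately. Read depth is not given in these files. The log2 ratio of replicate 1 to replicate 2 was taken over the 230 sites near these genes that had a peak in both. It had an SD of 0.44 and a median absolute value of 0.19. These values describe the spread between replicates over weak and strong sites together. They are not the error of a pooled signal, so small differences in pooled signal between sites cannot be judged by them.

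CTCF sites were found near every one of the 44 genes. A site lay in the gene body or within 25000 bp of it in 44 of 44 genes, for which the 95% Wilson interval is 92.0% to 100%, against a background of 83.5% of all protein-coding genes. A site lay in the gene body of 34 genes (77.3%, 95% Wilson interval 63.0% to 87.2%), against 56.5% of all genes. A summit lay within 1000 bp of an annotated start site of a protein-coding transcript, called a promoter site here, in 25 genes (56.8%, interval 42.2% to 70.3%), against 39.8% of all genes. The shares of all genes were not matched for base composition, and shares split by GC content are given further on. The genes are relatives with shared sequence and shared neighbourhoods, and the intervals cover counting error only. A site within 25000 bp of a gene need not belong to it. Of the 235 different sites near the 44 genes, 175 were nearer to a start site of one of them than to that of any other gene. A further gene outside the list had a start site within 1000 bp of 12 sites.

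By role, promoter sites were found in 9 of 18 ligand genes (50%, interval 29.0% to 71.0%), in 7 of 12 receptor genes (58.3%, interval 31.9% to 80.7%) and in 3 of 7 antagonist genes (42.9%, interval 15.8% to 74.9%). The R-spondin and Lgr genes had one in 5 of 6 (83.3%, interval 43.7% to 97.0%), and Axin2 had 1. These intervals overlap, so the share of genes with a promoter site did not separate the roles. The median number of sites within 25000 bp was 7 for ligands, 5.5 for receptors, 4 for antagonists and 4 for the R-spondin and Lgr genes, against 4 over all protein-coding genes. Per 100 kb of gene and surroundings, the medians were 9.63, 6.71, 5.58 and 2.86 sites in the same order of roles, against 4.55 over all genes. In these medians a site near 2 of the genes counts for each of them, as 22 sites around neighbouring ligand pairs do. Ligands of these pairs ran from 3.20 (Wnt3) to 18.5 (Wnt1) sites per 100 kb, and the other ligands from 1.66 (Wnt16) to 11.3 (Wnt8b). The ligand medians thus partly describe shared surroundings.

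**Figure D1:**
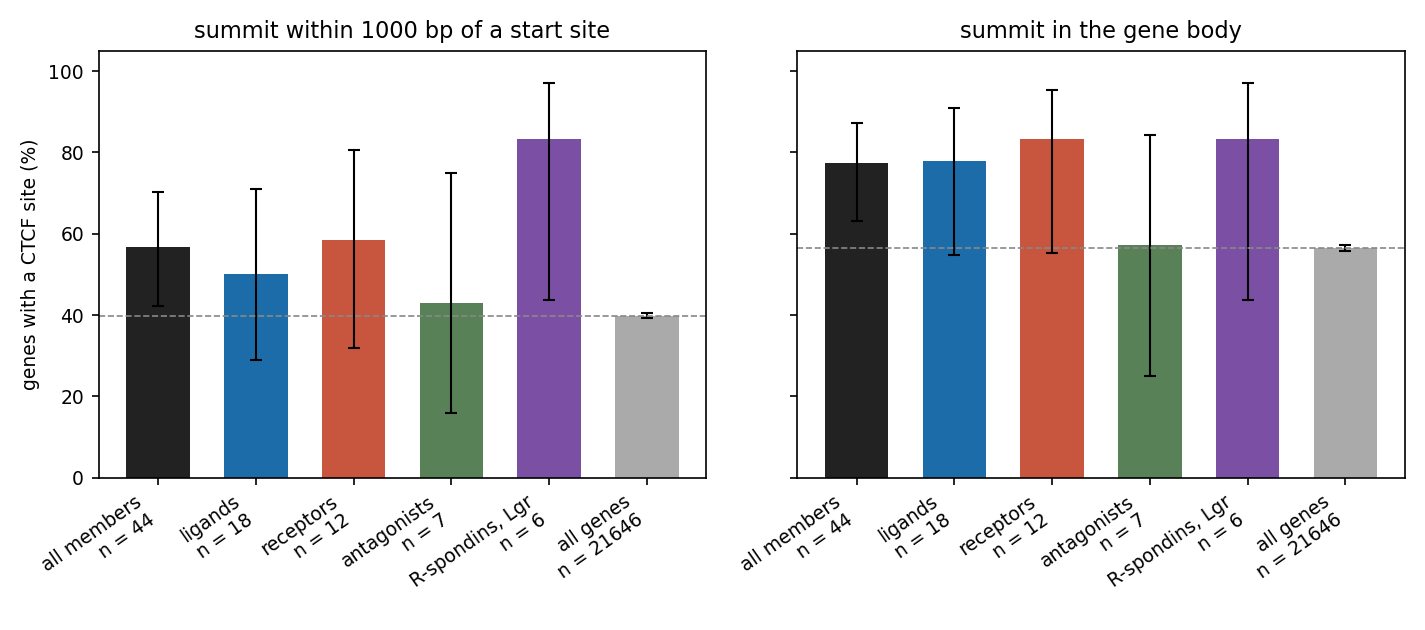
Share of genes with a CTCF promoter site (left) and with a site in the gene body (right), in percent, for all 44 genes, for 4 roles and for all 21646 protein-coding genes (grey bar and dashed line). Error bars are 95% Wilson intervals. The intervals of the 4 roles overlap each other, while the bar of all 44 genes stands at 56.8% and 77.3%, above the dashed lines at 39.8% and 56.5%. The dashed lines are not matched for base composition.

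In height, the promoter sites of the ligands included the strongest of the set. Among genes with a promoter site, the strongest one had a median pooled signal of 206 in the 9 ligand genes, 47.9 in the 7 receptor genes, 63.8 in the 3 antagonist genes and 41.4 in the 5 R-spondin and Lgr genes, against 72.2 over all 8618 genes with a promoter site. The pooled signals ranged from 22.4 to 424 in ligands, from 28.7 to 148 in receptors, from 35.8 to 127.9 in antagonists and from 25 to 343.5 in the R-spondin and Lgr genes, so the roles overlapped. The all-gene median was exceeded by 6 of 9 ligands, 3 of 7 receptors, 1 of 3 antagonists and 2 of 5 R-spondin and Lgr genes. Away from promoters, the median was 119.5 over 87 sites near ligands, 71.7 over 58 near receptors, 71.9 over 24 near antagonists and 57.1 over 26 near the R-spondin and Lgr genes. Sites among the strongest 10% of the whole list numbered 15 near ligands (14.9% of the sites there), 2 of 70 near receptors (2.86%), 2 of 27 near antagonists (7.41%) and 5 of 31 near the R-spondin and Lgr genes (16.1%). These are descriptions of 1 tissue sample, with no test of the difference between roles.

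**Figure D2:**
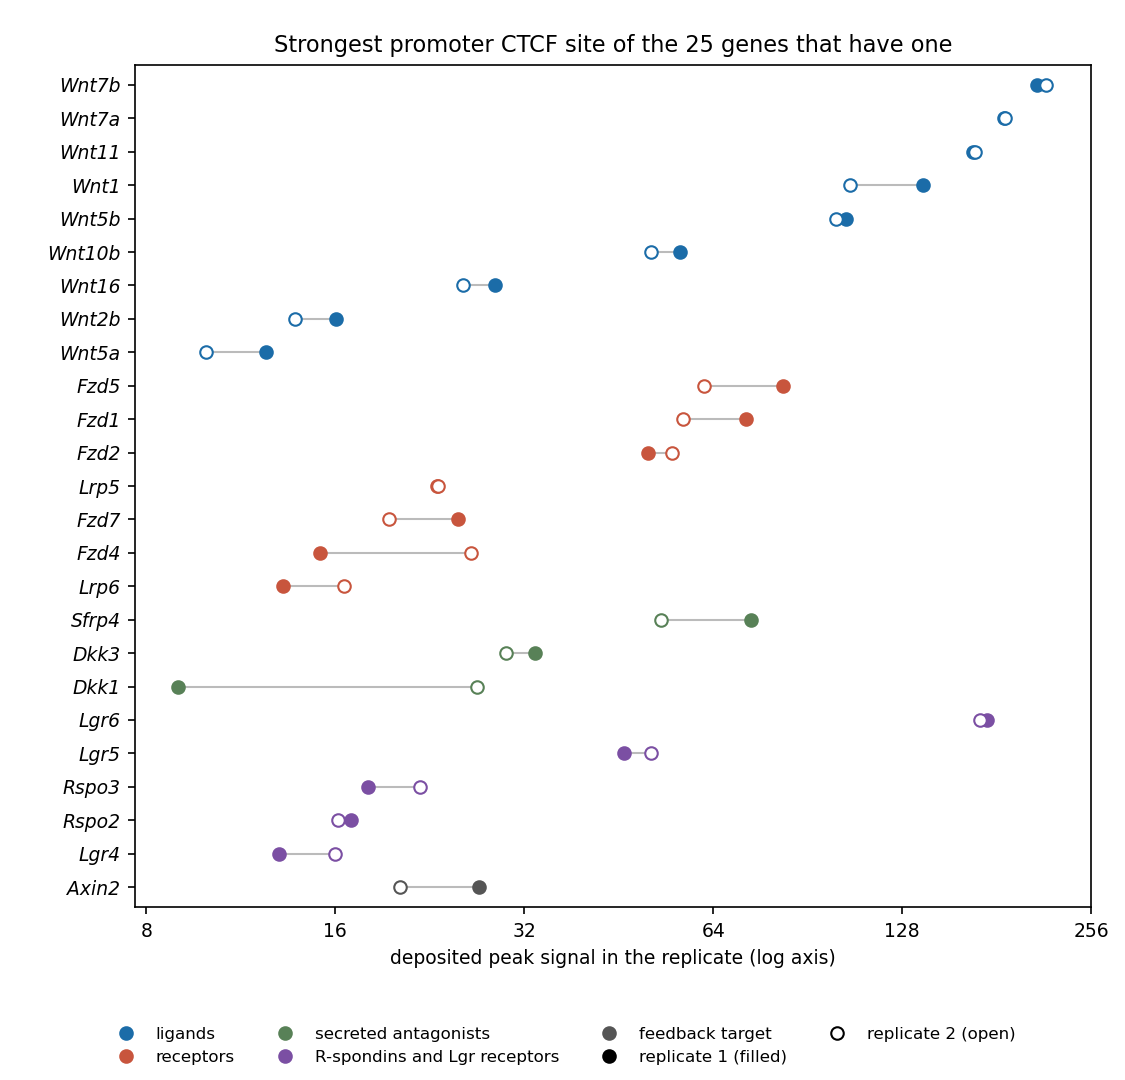
Signal of the strongest promoter site in replicate 1 (filled) and replicate 2 (open) for the 25 genes that have one, on a log axis, grouped by role and ordered by pooled signal. Wnt7b, Wnt7a, Lgr6 and Wnt11 lie above 165 in both replicates and the points of each gene nearly coincide, whereas Dkk1 has 9.0 and 26.9.

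Wnt7b, an epithelial ligand known to drive growth of the lung mesenchyme, had the strongest promoter site of the 44 genes. Its summit lay 761 bp upstream of the start site, with 210.1 in replicate 1, 217 in replicate 2 and a pooled signal of 424. Of all sites 2.33% were stronger, and 248 of the 8618 genes with a promoter site had a stronger one. Wnt7a, its closest paralogue, best known from limb and reproductive tract patterning, had a site 556 bp upstream with 186.0 and 186.5 in the replicates and a pooled signal of 369. Both genes carried their strong site upstream of the start, and both replicates gave nearly the same height.

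Wnt11, a ligand of the beta-catenin-independent branch that acts in ureteric branching, had 2 promoter sites, 2968 and 3931 bp past its outermost 5′ end and close to internal start sites. The stronger had 166 and 167 in the replicates and the weaker 85.9 and 85.0. Wnt5b, also of the beta-catenin-independent branch, had 4 promoter sites, the strongest at 104 and 100.4 in the replicates (pooled 206). That site lies 141 bp past an internal start site and 95102 bp inside the gene, while the site at position -423 bp of the outermost start had a pooled signal of 58.9. In both genes the stronger promoter sites were at internal starts and not at the outermost one.

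Wnt1, a ligand known from the midbrain, had a promoter site 174 bp upstream with 138 in replicate 1 and 106 in replicate 2 (pooled 242.5). Wnt10b, a ligand studied in mammary gland and fat, had one of 56.6 and 50.9 in a coding exon, 482 bp past an internal start. Wnt16, known from bone, had 28.7 and 25.6 at 10 bp from a start site, and that site is the only one within 25000 bp of the gene. Set against the all-gene median of 72.2, the pooled signals of Wnt1 and Wnt10b (111) were higher and that of Wnt16 (54.1) was lower. The error of these pooled signals is not known.

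Wnt2b, a ligand of the foregut mesenchyme with a known part in lung specification, had a weak promoter site of 16.1 and 13.8 at 490 bp upstream. Wnt5a, which acts in distal lung branching, had 12.4 and 9.95 at its stronger promoter site and 4.37 and 11.9 at its weaker one. Both genes had a much stronger site outside the 1000 bp limit: 325 pooled at position -6249 bp for Wnt2b and 342 pooled at 2954 bp for Wnt5a.

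The core of the CTCF motif lay under 3 of the 14 promoter sites of ligands, those of Wnt1 and Wnt7a and the one at position -646 bp of a start site of Wnt5b. The core is the 12-letter consensus searched on both strands within 50 bp of the summit with at most 1 mismatch. The 3 are shown, read from the mm10 reference along the strand of the core, because they are the ligand promoters where a motif match lies under the summit. Capitals mark the core, and the 9 letters on each side are its surroundings. The Wnt1 sequence is at chr15:98789660-98789689 on the minus strand, the Wnt5b sequence at chr6:119467852-119467881 on the plus strand, and the Wnt7a sequence at chr6:91411909-91411938 on the minus strand.
Wnt1 promoter: gaccagcatCCGCCAGGGGGCgcggagaca
Wnt5b internal promoter: gagaggtgaCCACTAGAGGGTggcagaatt
Wnt7a promoter: ctgccgcacCCAGCAGGTGTCgccgtgaga
Each differs from the consensus at 1 position, counted from 1 at the first capital: position 3 in Wnt1, position 12 in Wnt5b and position 11 in Wnt7a. The strongest promoter site of all, that of Wnt7b, had no core within the window, its best match having 2 mismatches.

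**Figure D3:**
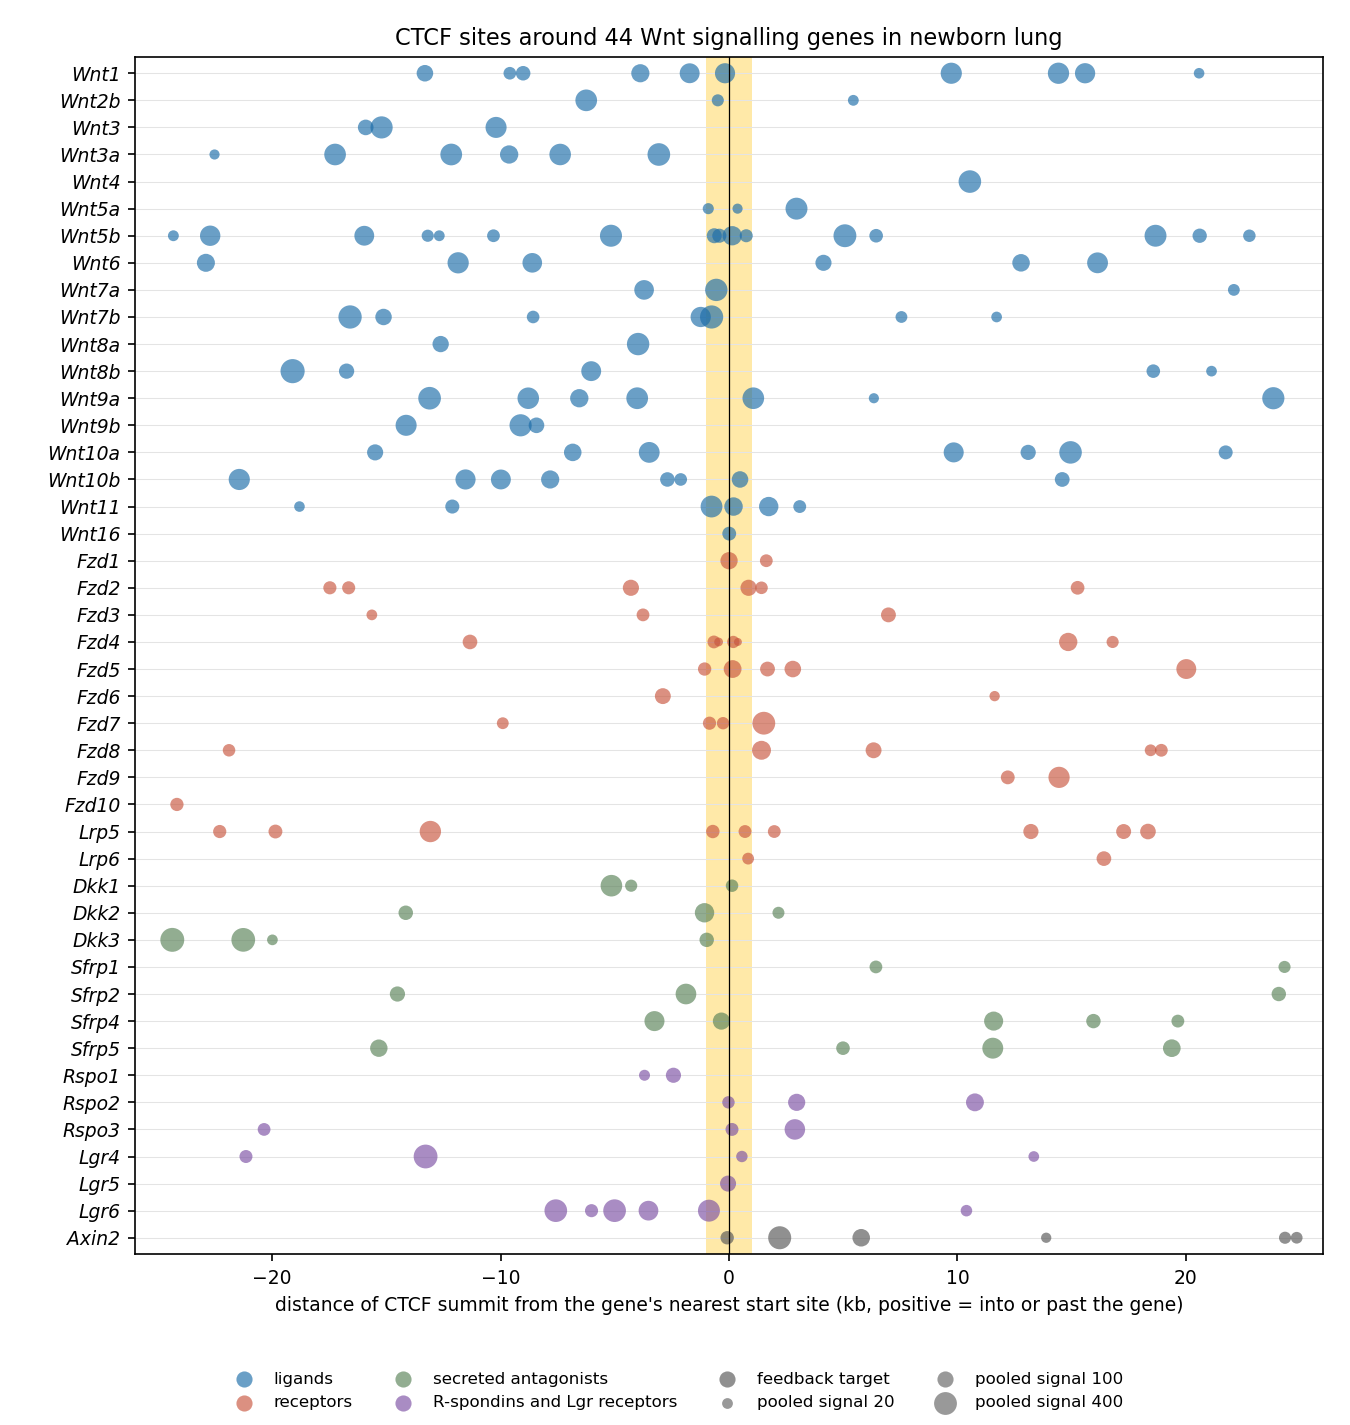
CTCF summits around each of the 44 genes (rows, by role) against the distance in kb from the gene's nearest start site, with the area of a point growing with the square root of its pooled signal and the band marking 1000 bp on either side. It shows 194 of 257 pairs of a site and a gene, the other 63 being farther from a start site in or beyond long genes. Promoter sites fall inside the band in 25 rows, and many large points lie outside it.

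Among the receptors, Fzd5 had the strongest promoter site, at 82.8 in replicate 1 and 61.9 in replicate 2 (pooled 148), 158 bp past a start site in a UTR. Fzd1 had 72.2 and 57.4 with its summit 2 bp from the only start site of the gene. Fzd2, a receptor for ligands that include Wnt5a, had 50.3 and 54.9 in its coding exon at 856 bp. These 3 receptor genes are the only ones above the all-gene median, and their bodies span 7.19, 4.2 and 3.66 kb in the order given.

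Weaker promoter sites were found in the other receptors. Lrp5, a co-receptor known from bone mass, had 23.3 in each replicate at its stronger promoter site. Fzd7 had 25.1 and 19.5, and Fzd4, which also transduces the Norrin signal in retinal vessels, had 15.2 and 26.3. Lrp6, the other co-receptor, had 13.2 and 16.5. The replicates of Fzd4 differ by more than those of most sites near these genes, so its place in the order is uncertain. Fzd4 had 4 promoter sites, 2 of which were below 10 in pooled signal and lacked a peak in 1 or both replicates within 100 bp.

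Lrp5 held the most sites of any of the genes, 19 within 25000 bp, 13 of them in its body of 102 kb, while Lrp6, with a body of 120.5 kb, had 7. The Lrp5 count includes a site 212 bp from a start site of Ppp6r3 and a site 445 bp from one of 1810055G02Rik. Fzd7 had the strongest site of the receptors near a start, a pooled signal of 399 at 1524 bp past its start and so outside the promoter limit. Fzd10 had 1 site in all, with 45.5 pooled at position -24165 bp. Receptor genes thus ranged from the fullest to nearly the emptiest surroundings of the set.

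Among receptors, 2 promoter sites carried the core, those of Fzd2 and Fzd5, with 1 mismatch each (position 5 in Fzd2 and position 3 in Fzd5). They are shown for comparison with the ligand promoters, from mm10 chr11:102605238-102605267 on the minus strand and chr1:64737567-64737596 on the plus strand, with the core in capitals.
Fzd2 coding exon: ggctgcagcCCAGAAGGTGGCgcggtggtg
Fzd5 UTR: gccgcctccCCTGCAGGGGGCtccgcgctc
In both, the core runs against the direction of the gene, as it does in Wnt1 and Wnt5b and not in Wnt7a.

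Of the secreted antagonists, Sfrp4 had a promoter site of 73.4 in replicate 1 and 52.8 in replicate 2, 332 bp upstream of a start site. Dkk3, a divergent member of the Dickkopf family, had 33.3 and 29.9 at 976 bp upstream. Dkk1, the best known Lrp-binding inhibitor, had 9.0 in replicate 1 and 26.9 in replicate 2, in ratio a wider gap than at any other promoter site named here. The Dkk1 site is missing from the conservative list and from the 64732 strongest peaks of replicate 1 taken alone. Its peak in replicate 1 was weak and fell below that cut, so the promoter call is uncertain. None of the 3 antagonist promoter sites had the core. The strong sites near antagonists lay farther out: Dkk3 had pooled signals of 467 and 483 at positions -21261 and -24368 bp, Dkk1 had 322 at position -5147 bp, and Sfrp1 had nothing above 39.3.

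Among the amplifiers of the pathway, Lgr6 had the third strongest promoter site of the 44 genes, with 175 in replicate 1 and 170.0 in replicate 2, 878 bp upstream. Lgr5, the marker of intestinal stem cells, had 46.1 and 51.0 at 41 bp upstream of a start site, and no other site in its 137.5 kb body or within 25000 bp of it. Rspo3 had 18.0 and 21.8, Rspo2 17.0 and 16.2, and Lgr4 13 and 16. Rspo1 had no promoter site. The 3 Lgr receptors differ widely in the number of sites: Lgr6 had 14, Lgr4 had 4 and Lgr5 had 1, although their bodies span 122, 96.6 and 137.5 kb. The Lgr6 count includes sites 33 and 448 bp from start sites of the neighbouring gene Ube2t.

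The Lgr5 and Lgr6 promoter sites are the other 2 of the 7 promoter sites with the core. They are shown because they belong to sister receptors with the fewest and the most sites around them, from mm10 chr10:115587517-115587546 on the plus strand and chr1:135106140-135106169 on the minus strand, with the core in capitals and its 1 mismatch at position 3 in both.
Lgr5 promoter: agcagggagCCTGTAGAGGGCagcgccggg
Lgr6 promoter: agtactgggCCTCCAGGTGGCgccaatcag
The core points against the direction of transcription at Lgr5 and along it at Lgr6.

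Axin2, the scaffold gene that is a common readout of beta-catenin activity, had a promoter site of 27.1 in replicate 1 and 20.3 in replicate 2. Its strongest site was intronic, 2219 bp past a start site, with a pooled signal of 414. All 6 of its sites lay in introns.

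The 19 genes without a promoter site were 9 ligands (Wnt3, Wnt3a, Wnt4, Wnt6, Wnt8a, Wnt8b, Wnt9a, Wnt9b and Wnt10a), 5 receptors (Fzd3, Fzd6, Fzd8, Fzd9 and Fzd10), 4 antagonists (Dkk2, Sfrp1, Sfrp2 and Sfrp5) and Rspo1. Their strongest site within 25000 bp had a pooled signal above 200 in 14 of 19 (73.7%, interval 51.2% to 88.2%), against 49.9% of all genes without a promoter site and 68.6% of those with any site within 25000 bp. The 1000 bp limit decided some of these calls. Dkk3 at 976 bp, Lgr6 at 878 bp and Fzd2 at 856 bp were the nearest inside it, while Wnt9a at 1064 bp (pooled 323), Dkk2 at 1071 bp (208) and Fzd8 at 1423 bp (189.5) were the nearest outside.

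Among the ligands in this group, Wnt8b, known from the forebrain, had the highest site near any of the 44 genes, 255 in replicate 1 and 247.5 in replicate 2, at position -19102 bp and with no core. Wnt4, a ligand of kidney and gonad development, had 194 and 190.2 in an intron at 10543 bp, with 1 mismatch in the core. Wnt8a, an early embryonic ligand, had 197 and 175 at position -3978 bp, with an exact core. The other ligands without a promoter site belong to the neighbouring pairs described further on.

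Among the receptors without a promoter site, Fzd3, which acts in axon guidance and planar polarity, had 207 and 199 at a site past the end of its 70 kb body. Fzd9 had 147 and 152 at 14447 bp, outside its 2.29 kb body, with an exact core. Fzd8 had 87 and 104 in its coding exon, and Fzd6, another planar polarity receptor, had nothing above 43.8 and 50.1. Fzd10 was the emptiest, with 31.1 and 13.6 at its only site, where the replicates differ by more than at most sites. The strongest site of these 5 receptors thus ran from 45.5 to 401 in pooled signal.

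Of the antagonists without a promoter site, Sfrp5 had 141.5 and 141 at 11546 bp with an exact core, Sfrp2 had 135 and 134 at 1884 bp upstream, and Dkk2 had 100.4 and 106 at 1071 bp upstream. Sfrp1, a secreted Frizzled-related protein, had 24.7 and 11.2 at its higher site, one of 2 within 25000 bp. Rspo1 had 40.3 and 39.2 at 2432 bp upstream. The strongest pooled signals were thus 39.3 at Sfrp1 and 78 at Rspo1, where the median of all sites was 76.2, while the other 3 genes had a site above 200.

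Measured as distance, the nearest site lay a median of 847 bp from a start site in the 44 genes, against 2966 bp over all protein-coding genes. The shares differed little at the start site itself and more beyond it: the nearest site was within 500 bp in 38.6% of the 44 genes, against 33.2% of all genes, and more than 500 and up to 1000 bp away in 18.2%, against 6.59%. No gene of the 44 was more than 25000 bp away from a site, against 20.1% of all genes. Over the 44 genes together, the median per 100 kb was 6.49 sites. Of the 35 promoter sites of these genes, none was also within 1000 bp of the start site of another protein-coding gene, which allows a share of up to 9.89% by the 95% Wilson interval, against 8.48% of all 10482 promoter sites.

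Base composition and the number of annotated starts both move with these counts, and their part in the difference from all genes was not tested. GC content within 500 bp of the outermost 5′ end had a median of 63.5% in the 44 genes, against 54.9% over all genes. Among genes with a GC content of 60% or more there, a promoter site was found in 17 of 31 of the Wnt genes (54.8%, interval 37.8% to 70.8%), against 61.7% of all such genes. Among genes below 60%, it was found in 8 of 13 (61.5%, interval 35.5% to 82.3%), against 30.9%. A body site was found in 74.2% of the Wnt genes at 60% or more (interval 56.75% to 86.3%), against 77.7% of all such genes. Below 60% a body site was found in 84.6% (interval 57.8% to 95.7%), against 47.9%. All Wnt genes of both classes had a site within 25000 bp, against 97.8% of all genes at 60% or more and 77.75% below. Genes with 1 start site had a promoter site in 10 of 26 (38.5%, interval 22.4% to 57.5%), against 30.1% of all such genes, which lies inside that interval. Genes with more starts had one in 15 of 18 (83.3%, interval 60.8% to 94.2%), against 45.6%. In the GC-rich class, which holds most of these genes, the promoter and body shares of all genes lay inside the intervals of the Wnt genes. In the other class both lay below those intervals. Base composition was not matched inside that other class: the median GC content was 57.3% in its Wnt genes and 51.15% over all its genes.

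Some of the ligand genes lie as 4 neighbouring pairs, a layout that is old in animal evolution, and their surroundings share CTCF sites. Wnt1 and Wnt10b point away from each other 11.7 kb apart on chromosome 15, with 5 sites between them. Wnt3 and Wnt9b are divergent 24.3 kb apart on chromosome 11 with 3 sites between, Wnt3a and Wnt9a are divergent 16.2 kb apart on the same chromosome with 4, and Wnt6 and Wnt10a run in tandem 6.19 kb apart on chromosome 1 with 1. Each of the 4 pairs thus had at least 1 site between its genes. In all, 22 of the 235 different sites lay within 25000 bp of 2 of the 44 genes, so neighbouring genes are not independent points.

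**Figure D4:**
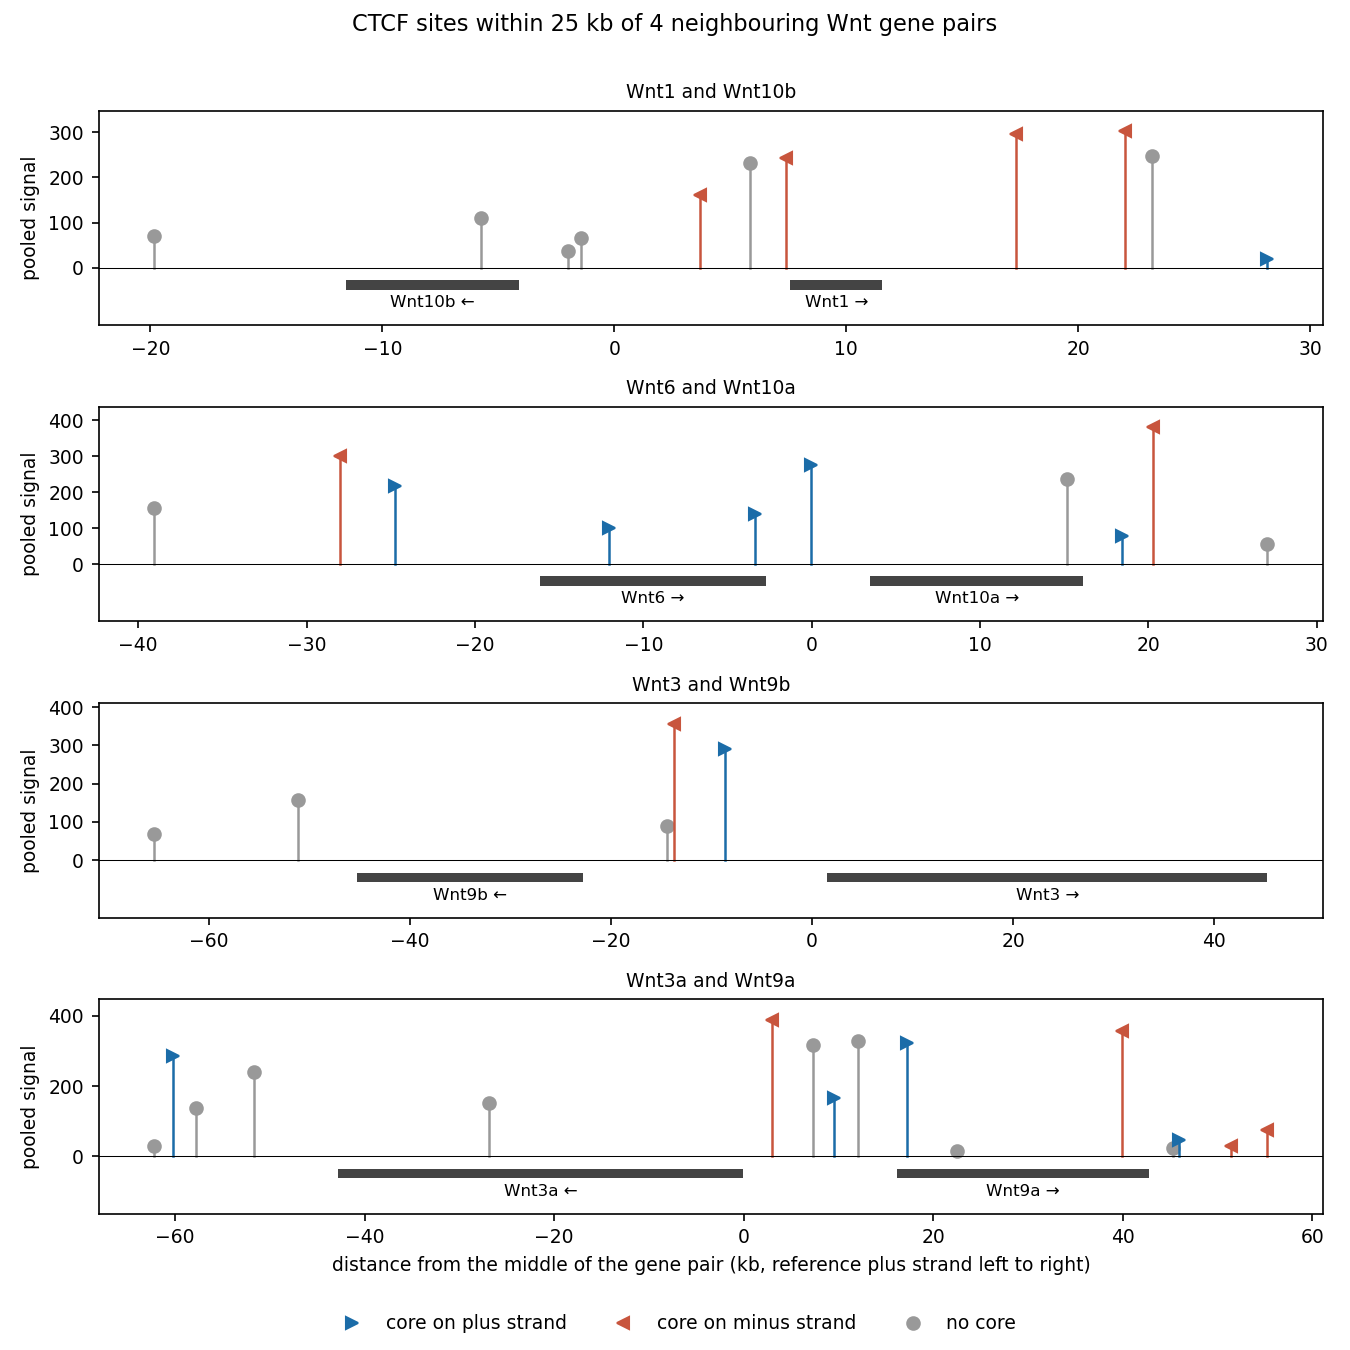
CTCF sites around the 4 Wnt gene pairs: height is the pooled signal, the horizontal axis the distance in kb from the middle of the pair, dark bars the genes with an arrow for their direction, and triangles the strand of the core (grey points have none). Every gap holds at least 1 site, and the gap between Wnt3a and Wnt9a holds 4 sites with pooled signals from 166 to 388.

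In the gap between Wnt3 and Wnt9b, both strong sites carried an exact core, and the 2 cores were on opposite strands 5 kb apart and pointed away from each other. The one nearer Wnt9b had 182 in replicate 1 and 177 in replicate 2, and the one nearer Wnt3 had 164 and 127. In the gap between Wnt6 and Wnt10a, the single site had an exact core on the plus strand, with 153.5 and 124 in the replicates. Outside the Wnt6 and Wnt10a pair, the strongest flanking sites had cores on the minus strand on both sides, with pooled signals of 299.9 before Wnt6 and 380.3 after Wnt10a. These sites are the ones that lie between neighbouring ligand genes with an exact motif, and the 3 sequences follow, from mm10 chr11:103758928-103758957 on the minus strand, chr11:103763923-103763952 on the plus strand and chr1:74788010-74788039 on the plus strand, with the core in capitals.
between Wnt9b and Wnt3, nearer Wnt9b: ccccgctgaCCAGCAGGGGGCgctcctgca
between Wnt9b and Wnt3, nearer Wnt3: ctttattctCCAGCAGGTGGCactctcatc
between Wnt6 and Wnt10a: tcaaatagaCCACCAGAGGGCgtccaggat
The orientation of a core is a property of the reference sequence, and loops were not measured in these data.

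The sites between Wnt3a and Wnt9a were high in both replicates. The highest had 195 in replicate 1 and 194 in replicate 2, and it lies 3071 bp upstream of Wnt3a. The next had 166 and 164, then 160 and 156, and the lowest 83.2 and 81.6. Between Wnt1 and Wnt10b the signal was uneven: the sites nearer Wnt10b had pooled signals of 37.9 and 66, and those nearer Wnt1 had 161, 231 and 242.5. Neither Wnt3a nor Wnt9a had a promoter site in spite of these neighbours.

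The share of sites with the core was close to that of the whole list. It lay under 110 of the 235 sites (46.8%, interval 40.5% to 53.2%), against 48.3% of all sites. In windows 1000 bp to either side, it was found in 1.06%, against 1.28% around all sites. At promoter sites of the 44 genes it was found in 7 of 35 (20%, interval 10% to 35.9%), against 20.6% of all promoter sites, and at their other sites in 103 of 200 (51.5%, interval 44.6% to 58.3%), against 53.9%. The intervals of promoter sites and of other sites of the Wnt genes do not overlap. Strong promoter sites without a core included those of Wnt7b and Wnt11.

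One 12-letter version of the core recurred more than any other near the Wnt genes. It was present under 18 of the 110 sites with a core (16.4%, interval 10.6% to 24.4%), against 19.4% of all sites with a core of known strand, and it was picked here because it was the most frequent. In all 18 at least 50% of the window of 50 bp on either side of the summit was soft-masked as repeat in the reference, against 3 of the 92 other sites with a core; over the whole list the share was 83.2% with this version and 8.0% with another. By role it was found in 9 of 35 sites with a core near receptors, 7 of 43 near ligands, 1 of 16 near antagonists and 1 of 15 near the R-spondin and Lgr genes. A short interspersed repeat family of rodents, the B2 elements, is known to carry a CTCF motif; repeat families were not annotated in the files used here.

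Sites with this version were low. Their median pooled signal was 58.4 in the 18 near the Wnt genes, against 158 in the 92 with another core and 57.6 in the 125 with none. The whole list had medians of 51.2, 171 and 51.5 in the same classes. The highest of the 18 had a pooled signal of 168 and the lowest 18.6. A set of 4 is shown, to let the shared letters be seen outside the core as well: the highest near a ligand pair, between Wnt3a and Wnt9a (chr11:59300363-59300392, plus strand, 83.2 and 81.6 in the replicates), one inside the Wnt5b gene (chr6:119442922-119442951, plus strand, 26 and 25.49), one past Fzd4 (chr7:89421120-89421149, plus strand, 20.7 and 10.5) and one before Dkk3 (chr7:112179052-112179081, minus strand, 7.27 and 10.3), all on mm10 and with the core in capitals.
between Wnt3a and Wnt9a: ctgcagaggCCAGAAGAGGGCattggctct
in Wnt5b: ctccagaggCCAGAAGAGGGCgctggatct
past Fzd4: ctgcagaggCCAGAAGAGGGCgtcagatct
before Dkk3: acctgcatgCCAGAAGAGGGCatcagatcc
The last of these 30-letter sequences is also the one under a site past Fzd5, at chr1:64710071-64710100 on the minus strand, where the signal was 72.3 and 70.6. The same 30 letters thus lay under a pooled signal of 19.4 near Dkk3 and of 144 near Fzd5.

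**Figure D5:**
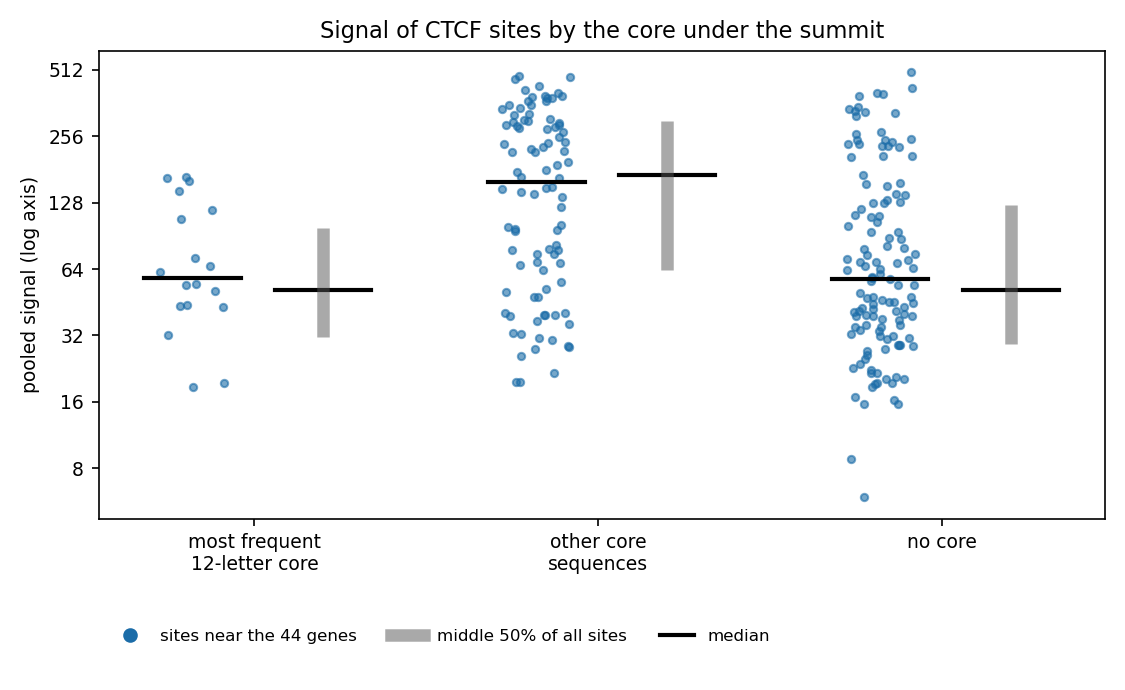
Pooled signal, on a log axis, of the 235 sites near the Wnt genes (points) split by the core under the summit, each beside the middle 50% of all sites of that class (grey bars), with black lines at the medians. Sites with the most frequent 12-letter core sit at a median of 58.4, near the 57.6 of sites with no core and below the 158 of sites with another core.

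The direction of the core was read against that of the gene. Upstream, 22 of 36 cores lay on the strand of the gene (61.1%, interval 44.9% to 75.2%), against 49.2% of pairs of a site and a gene over all protein-coding genes. Downstream, 12 of 40 did (30.0%, interval 18.1% to 45.4%), against 54.0%, and in the gene body 13 of 34 (38.2%, interval 23.9% to 55.0%), against 49.1%. Read towards the gene, 22 upstream cores faced it and 14 faced away, and 28 downstream cores faced it and 12 faced away. The intervals of the 2 sides overlap narrowly, and only the downstream one leaves out the share of all genes. Several cores lie near the same gene, and the downstream ones of Sfrp4 and of Sfrp5 all ran against the gene. Such cores are not independent, and the intervals do not allow for that. Sites near 2 of the Wnt genes were counted once, for the gene with the nearer start, whereas the shares of all genes count every pair, and no test was made.

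Other Wnt pathway genes were looked up for comparison. Of 17 further secreted and membrane genes, 8 had a promoter site (47.1%), or 8 of 16 (50%) without 1 gene that is counted as having no site but is not reported here. They were led by Rnf43, a ligase that removes Frizzled from the membrane (167 and 179 in the replicates), Wif1, a secreted inhibitor made in lung (155 and 173), and Ror1, a receptor for Wnt5a (140 and 133). Of 24 intracellular genes, 15 had one (62.5%), led by the transcription factor gene Tcf7l1 (221 and 210.4), the co-repressor gene Tle1 (163 and 157) and the beta-catenin cofactor gene Bcl9l (148 and 155). Of 9 planar polarity genes, 7 had one (77.8%), led by Prickle1 (181.0 and 183.5), Celsr1 (119 and 109) and Celsr3 (58.5 and 62.2). The beta-catenin gene Ctnnb1 had no promoter site. The intervals of these shares, 26.2% to 69.0%, 42.7% to 78.8% and 45.3% to 93.7%, overlap that of the 44 genes. Over all protein-coding genes the share was 39.8%. More than 1 annotated start was found in 52.9%, 87.5% and 100% of the genes of these lists, in the same order. That compares with 40.9% of the 44 genes and 62.5% of all genes, and the part of this in the shares was not tested.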

How the data were processed

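CTCF ChIP-seq peak lists of 2 replicates of newborn lung were analysed. Per the deposited file descriptions, the authors called peaks on each replicate and on both pooled, and derived the optimal and conservative IDR lists from these, on mm10. No source used here names the aligner, the caller or the IDR threshold. The peak signal deposited by the authors is never negative, and that of the IDR lists is the pooled one. The −log10 of the q-value deposited by the authors is at most 5.08 and was not used to choose sites. The summit is an offset from the peak start.

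Genes and start sites of protein-coding transcripts came from GENCODE M21, and sequence from RefSeq's GRCm38 genome, the assembly mm10 names. Peaks on other contigs (10 of 64742) were left out. The core is a 12-letter CTCF consensus. Intervals of shares are 95% Wilson intervals (counting error only). Python 3.11.15, NumPy 2.4.6, pandas 2.3.3 and pysam 0.24.0 were used. Core search and gene assignment were run on simulated data, where 2000 of 2000 planted cores and 200 of 200 planted promoter genes were found. The planted cores were exact and the planted summits lay within 1000 bp of a start site. This checks the code only, and neither false matches nor cores with 1 mismatch were examined. The genes and lists were chosen with earlier results of these data known. All 44 genes were reported; of the other pathway genes, the 3 with the strongest promoter site in each list were named, and 1 gene of those lists is not reported here; its count of 0 sites may come from data not used here. Alternatives were the conservative list, the 32366 strongest sites, each replicate alone, close sites dropped, other distances and start sites, and other motif settings. For a replicate alone, its 64732 strongest peaks were used.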

Additional observations from a re-analysis of the deposited data

Results flagged for a closer look

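Of the 19 genes without a promoter site in the optimal list, 15 had a peak of the pooled list, which goes below the IDR threshold, within 1000 bp of a start site; it is given here because it lies in data that the comparisons above do not use. That is 78.9%, against 50.1% of all 13028 genes without a promoter site. Their strongest pooled signals ran from 5.80 at Wnt3 to 22.8 at Fzd8, and none of the 15 had the core. At Wnt3 and Fzd6 the strongest peak had no matching peak in either replicate. At Wnt8a, Wnt9a and Dkk2 it had none in replicate 2, and at Fzd9, Sfrp2 and Sfrp5 none in replicate 1. Base composition was not matched: the median GC content at the outermost 5′ end was 64.7% in the 19 genes and 51.25% in the 13028. The difference from all genes in the share with a pooled peak was not tested. The pooled list holds 300000 peaks with a median signal of 8.46. Fzd8 alone had a site of the conservative list at its promoter.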

How the results depend on the processing

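Of 63 values recomputed under other settings, 53 stayed within the limit set for them (1.5 times the count, or the 95% interval of the share) and 10 moved. With only the 32366 strongest sites, promoter sites were left in 12 of the 44 genes, 3 receptors and 1 antagonist, body sites in 21 genes, and the core was under 58.6% of sites. With start sites within 500 bp the receptors with a promoter site were 4; within 2500 bp the antagonists were 5; within 5000 bp the antagonists were 6 and the ligands 14. Within 500 bp the share was 38.6% of the 44 genes, against 33.2% of all genes. For the other settings no share of all genes was set beside the gene counts. Those counts do not show whether the difference from all genes holds there. With no mismatch the core was under 13.6% of sites. With either replicate left out, the counts were 25 to 26 genes, 9 to 10 ligands, 7 to 8 receptors and 2 to 3 antagonists with a promoter site, 32 to 33 genes with a body site, all 44 with a site within 25000 bp, and the core under 45.1% to 45.7% of sites. The conservative list kept 24 of the 25 genes, without Dkk1 and with Fzd8 added; replicate 1 alone kept 24, without Dkk1 and with Wnt9a and Fzd8 added; 1 start site per gene left 23, without Wnt10b and Wnt11. No paired analysis was possible because there is 1 group. Read depth is unknown, so a missing peak is a peak not called at this depth, and both replicates come from 1 biosample.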
